A study of Homo sapiens with 4 samples.

Results

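The aminoacyl-tRNA synthetases were followed as a set of 36 genes, 20 encoding the cytosolic enzymes and 16 the mitochondrial enzymes, whose symbols end in 2. Members were taken by gene symbol from the 62077 rows of the expression table. This rule uses no measured value, but the set itself was picked with earlier results of these data known. Rows on the standard chromosomes were kept, and 6 further rows for VARS on alternative haplotypes were listed at 0 in every library and left out. All 36 genes passed the minimum mean of 1 FPKM (fragments divided by exon length and sequencing depth), which 15057 genes passed in all.

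RNA was sequenced from FaDu cells, an established epithelial line derived from a hypopharyngeal squamous carcinoma. H-scr and H-si were kept for 19 h at 1% oxygen and 5% CO2, and N-scr and N-si in normoxia. H-scr and N-scr carried a scrambled control, whereas H-si and N-si carried the TET1 knockdown (TET1-si), a short hairpin RNA delivered by lentivirus, and all 4 groups come from the same line. TET1 is a dioxygenase that oxidises 5-methylcytosine in DNA, and the study asked which genes depend on it under hypoxia. Each group had 1 library, so no difference has a replicate check, no p-value is given, and every comparison below is between single libraries. Wherever a pair of values is given for normoxia, for hypoxia or for the hypoxia response, the scrambled cells come first and the TET1-si cells follow.

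Aminoacyl-tRNA synthetases join each amino acid to its tRNA and so feed the ribosome. Cytosolic and mitochondrial translation mostly use separate enzymes, all encoded in the nucleus, although KARS and GARS serve both compartments. Some cytosolic synthetases are held together with scaffold proteins in a multisynthetase complex, while the others are free. Several are known targets of ATF4 in the amino acid response, through promoter elements called CARE (C/EBP-ATF response element), and WARS, the tryptophanyl enzyme, is known to be induced by interferon.

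The recovered depth was 22650000 to 24700000 reads per library, and each member rested on approximately 186 to 22102 reads in a library. TET1, the knockdown target, was 2.63-fold lower in N-si than in N-scr and 2.71-fold lower in H-si than in H-scr, at levels of 0.0493 to 0.331 FPKM. Of the squamous epithelial markers, KRT5 ranged from 524 to 3992 FPKM and TP63 from 42.1 to 54.8 FPKM. The leukocyte marker CD3E and the fibroblast marker COL1A2 were listed at 0 in all 4 libraries and PTPRC reached at most 0.0101 FPKM, but CD68, a lysosomal protein used as a macrophage marker, was at 19.8 to 26.8 FPKM, COL1A1 was at 5.29 to 37.0 FPKM and the endothelial cadherin CDH5 at 8.75 to 45.5 FPKM, all 3 highest in H-si. KRT14 and KRT6A set the TET1-si libraries apart: KRT6A was at 67.7 and 0.394 FPKM in normoxia and at 109 and 0.357 FPKM in hypoxia. The part of these differences between cultures in the values below was not tested.

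Promoters from RefSeq (GRCh38.p14, 250 bases before to 50 after the start) were matched by symbol for 30 of the 36 genes, 16 cytosolic and 14 mitochondrial, giving 39 promoters. DARS, LARS, VARS, YARS, AARS2 and VARS2 had no match. The CARE core TGATGNAA, searched on both strands, was found in 7 of the 16 cytosolic genes and in 1 of the 14 mitochondrial genes, YARS2. By promoter, it was in 33.3% of the 21 cytosolic and 5.56% of the 18 mitochondrial promoters, beside 3.62% of all 35116 promoters of the same length. Because the synthetases with the core are compared with the others further on, the matches are shown here on the strand of the gene, with the core or its reverse complement in capitals and 10 bases on each side.
AARS, chr16:70289676-70289703, minus strand: tttctcgcagTTGCATCAgccaagttag
CARS, chr11:3057408-3057435, minus strand: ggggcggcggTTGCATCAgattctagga
GARS, chr7:30594835-30594862, plus strand: tacgcggcgaTTTCATCAtgctccgagc
IARS, chr9:92293693-92293720, minus strand: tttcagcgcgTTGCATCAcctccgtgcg
MARS, chr12:57488054-57488081, plus strand: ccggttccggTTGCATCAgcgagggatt
NARS, chr18:57621805-57621832, minus strand: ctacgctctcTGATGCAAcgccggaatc
TARS, chr5:33440957-33440984, plus strand: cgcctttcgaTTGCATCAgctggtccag
YARS2, chr12:32756077-32756104, minus strand: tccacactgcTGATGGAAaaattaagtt

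A match describes letters in this window and is no evidence that a factor bound there. In 6 of the 7 cytosolic genes the core read TGATGCAA, GARS being the exception, and it lay on the gene strand in NARS and on the other strand in the rest. Counted from the start, the core began between positions -33 and 15 in all of these except AARS, where it began at -187, and in YARS2 it began at -197. The E-box CACGTG was found for IARS, CARS2, EARS2 and MARS2, in 12.8% of the 39 promoters beside 7.26% of all. The hypoxia response core ACGTG, which every E-box contains, was in 25.6% of them beside 21.4% of all.

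Levels were compared between genes as FPKM, which is a value per length. Cytosolic synthetases stood above mitochondrial ones in every library, with a median of 115 against 20.7 FPKM in N-scr and 57.1 against 15.2 FPKM in H-si. The lowest and highest cytosolic genes were CARS and TARS in both normoxia libraries (27.9 and 249 FPKM in scrambled, 20.2 and 275 FPKM in TET1-si cells), FARSB and WARS in H-scr (12.2 and 369 FPKM) and FARSB and QARS in H-si (11.0 and 228 FPKM). CARS2 was the highest mitochondrial gene in the 4 libraries, at 88.4 to 130 FPKM, while the lowest was PARS2 in both normoxia libraries (4.47 and 5.45 FPKM) and MARS2 in both hypoxia libraries (3.39 and 3.63 FPKM). Summed over members, the cytosolic level was 2491 and 2220 FPKM in normoxia and 2096 and 1418 FPKM in hypoxia. The mitochondrial sum was 508 and 572 FPKM in normoxia and 407 and 458 FPKM in hypoxia. Both sums were lower in hypoxia than in normoxia in each knockdown state, but TET1-si went with a lower cytosolic and a higher mitochondrial sum, and the ratio of the sums was 4.90 and 3.88 in normoxia and 5.15 and 3.10 in hypoxia. Much of the higher mitochondrial sum lay in few genes, such as CARS2 in hypoxia (88.4 and 130 FPKM). In normoxia they included YARS2 (51.1 and 79.5 FPKM) and IARS2 (80.0 and 103 FPKM). Of the 16 genes 7 were lower after TET1-si under hypoxia and 6 under normoxia, beside 42.9% and 39.0% of all genes. The sums are as deposited. Median-of-ratios scaling divides by 0.918 and 1.03 in normoxia and by 0.994 and 1.10 in hypoxia, which lowers the TET1-si sums relative to scrambled. In these bulk samples fewer cells of a type and less RNA per cell cannot be told apart.

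**Figure D1:**
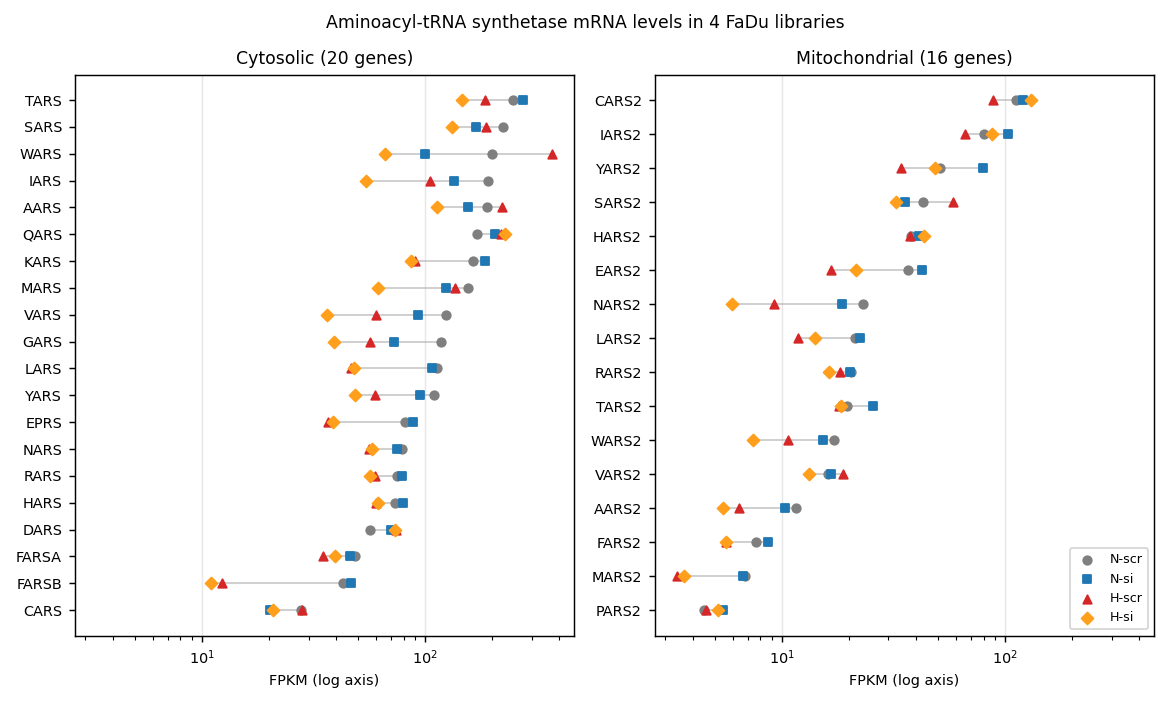
FPKM (log axis) of the 20 cytosolic and the 16 mitochondrial synthetase genes in the 4 libraries, 1 point per library and no error bars since each group had 1 library. WARS spans 66.3 to 369 FPKM, a wider range than its neighbours, and FARSB drops from 42.9 and 46.5 FPKM in normoxia to 12.2 and 11.0 FPKM in hypoxia.

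The first comparison asked how the synthetases responded to hypoxia in scrambled cells, on a log2(FPKM + 0.1) scale. Of the 36 members 28 were lower in H-scr than in N-scr, against 46.4% of all genes tested, and 30 lay below the median of all genes. The median change was -0.45 for the cytosolic set, -0.39 for the mitochondrial set and 0.05 for all genes. At least 1.5-fold lower were 14 members, 8 cytosolic and 6 mitochondrial, beside a background of 13.7%, and 7 were at least 2-fold lower, beside 4.53%. WARS alone was at least 1.5-fold higher, where 23.2% of all genes were. Median-of-ratios scaling gave 30 lower members and rescaling to TPM 27, with CARS and PARS2 crossing 0 under the former and HARS2 under the latter.

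In TET1-si cells 31 members were lower in H-si than in N-si, against 47.8% of all genes, and the median was -0.74 for the cytosolic set and -0.55 for the mitochondrial set, beside 0.03 for all genes. At least 1.5-fold lower were 19 members, beside 19.0% of all genes, and 9 were at least 2-fold lower, beside 8.66%. No member was at least 1.5-fold higher, where 23.7% of all genes were. The 2 libraries compared here are others than in scrambled cells. Each of the 14 members that were at least 1.5-fold lower in scrambled cells was so in TET1-si cells too, which 9.27% of all genes were in both states, and 26 members were lower in both, beside 35.7%. The difference between the cytosolic and mitochondrial medians was -0.067 in scrambled and -0.19 in TET1-si cells.

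**Figure D2:**
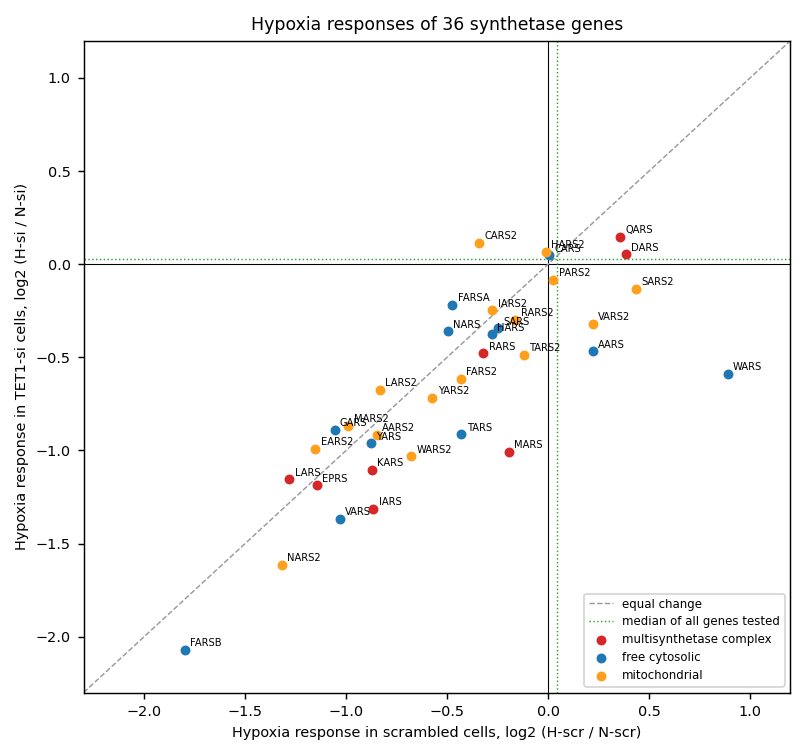
Log2 change in hypoxia of the 36 synthetase genes in scrambled cells (horizontal) and in TET1-si cells (vertical), coloured by group, with dotted lines at the median of all genes tested (0.05 and 0.03) and a dashed line of equal change. Most members lie in the lower left, with FARSB lowest in both, and WARS, at 0.89 and -0.59, is the member farthest from the dashed line.

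Subunits of the multisynthetase complex had median hypoxia responses of -0.59 and -1.06. They did not move as a unit. LARS, the leucyl enzyme (chromosome 5, 145492601 to 145562223, hg19), had 113 and 107 FPKM in normoxia and 46.3 and 48.0 FPKM in hypoxia. EPRS, which charges tRNAs with both glutamate and proline, had 81.4 and 88.0 FPKM in normoxia and 36.8 and 38.6 FPKM in hypoxia. KARS, the lysyl enzyme, had 164 and 186 FPKM in normoxia and 89.6 and 86.4 FPKM in hypoxia. For these 3 genes both hypoxia libraries lay below both normoxia libraries, with hypoxia responses of -1.28 and -1.15 for LARS, -1.14 and -1.19 for EPRS and -0.87 and -1.10 for KARS.

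IARS, the isoleucyl enzyme (chromosome 9, 94972489 to 95056038, hg19), was lower in hypoxia and after TET1-si, with 192 and 135 FPKM in normoxia and 105 and 54.3 FPKM in hypoxia. MARS, the methionyl enzyme (chromosome 12, 57869228 to 57911352), had 156 and 124 FPKM in normoxia and 136 and 61.7 FPKM in hypoxia. The response to hypoxia was -0.20 and -1.01, and H-si stood apart from the other 3 libraries. MARS overlaps DDIT3, itself an amino acid response gene, on the opposite strand, and since no source states a stranded protocol, the pair can share reads. RARS, the arginyl enzyme, was at 74.5 and 78.5 FPKM in normoxia and 59.6 and 56.3 FPKM in hypoxia.

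QARS, the glutaminyl enzyme, went the other way, with 171 and 206 FPKM in normoxia and 219 and 228 FPKM in hypoxia. The response to hypoxia was 0.36 (95% counting interval 0.32 to 0.40) and 0.15 (0.11 to 0.19). DARS, the aspartyl enzyme, had 56.4 FPKM in scrambled normoxia and between 70.3 and 73.7 FPKM in the other 3 libraries. The 3 scaffold genes of the complex were lower in hypoxia in both states, AIMP2 most, with 25.6 and 27.97 FPKM in normoxia and 11.1 and 10.9 FPKM in hypoxia. In scrambled cells EEF1E1 was at 72.2 FPKM in normoxia and 32.9 in hypoxia, and AIMP1 at 72.4 and 46.0. The list median was -1.13 in scrambled and -1.33 in TET1-si cells.

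Among the 12 free cytosolic genes the median hypoxia response was -0.45 in scrambled and -0.53 in TET1-si cells. FARSB, which encodes the beta subunit of phenylalanyl-tRNA synthetase (chromosome 2, 223435255 to 223521056, hg19), was the lowest member in hypoxia, with 42.9 and 46.5 FPKM in normoxia and 12.2 and 11.0 FPKM in hypoxia. Its level was 3.50-fold lower with the scrambled control and 4.23-fold lower with TET1-si, at the 0.983 and 1.51 percentiles of all genes. FARSA encodes the alpha subunit of the same enzyme and had 48.3 and 45.8 FPKM in normoxia and 34.7 and 39.4 FPKM in hypoxia. The subunits stood at similar levels in normoxia, but in hypoxia FARSB was below FARSA, with responses of -1.80 and -2.07 against -0.48 and -0.22.

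GARS, the glycyl enzyme, had 118 and 72.3 FPKM in normoxia and 56.6 and 39.0 FPKM in hypoxia. VARS, the valyl enzyme, had 124 and 93.3 FPKM in normoxia and 60.5 and 36.1 FPKM in hypoxia. In YARS, the tyrosyl enzyme, the values were 110 and 94.8 FPKM in normoxia and 59.6 and 48.6 FPKM in hypoxia. All 3 were lower in hypoxia in both states and after TET1-si in both oxygen states. TARS, the threonyl enzyme, was at 249 and 275 FPKM in normoxia and at 185 and 146 FPKM in hypoxia, a response of -0.43 and -0.91.

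Smaller differences in hypoxia were measured for the enzymes charging serine (SARS), histidine (HARS) and asparagine (NARS). SARS had 223 and 168 FPKM in normoxia and 187 and 133 FPKM in hypoxia. HARS had 73.4 and 79.8 FPKM in normoxia and 60.5 and 61.5 FPKM in hypoxia, and NARS had 78.8 and 74.5 FPKM and then 55.8 and 58.0 FPKM. CARS, the cysteinyl enzyme, hardly differed with oxygen, at 27.9 FPKM in both scrambled libraries and 20.2 and 20.9 FPKM in the TET1-si libraries, and its counting intervals for hypoxia spanned 0 in both states (-0.09 to 0.10 and -0.07 to 0.16).

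WARS (chromosome 14, 100800125 to 100843142, minus strand, hg19) was the one member past the 1.5-fold bound upward in the scrambled hypoxia comparison. It had 199 and 99.8 FPKM in normoxia and 369 and 66.3 FPKM in hypoxia, so the highest and the lowest library were the 2 hypoxia libraries. With scrambled RNA hypoxia went with a 1.85-fold higher WARS level (counting interval of the log2 ratio 0.86 to 0.92) and with TET1-si a 1.505-fold lower one (-0.65 to -0.53). The difference of the responses, TET1-si less scrambled, was -1.48, at the 3.89 percentile of all genes, and AARS (-0.69) and MARS (-0.81) were the other members for which it was at least 1.5-fold lower, beside 16.7% of all genes. Under hypoxia TET1-si went with a 5.57-fold lower level, and under normoxia with a 1.997-fold lower level. The study's RNA-Seq criteria, which ask that H-scr exceed N-scr and exceed H-si by more than 2-fold and that N-scr be no lower than N-si, were met by WARS alone of the 36 genes, beside 3.84% of all genes tested.

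The gene's promoter windows were examined for interferon-type elements after these values were seen. The upstream window lacked both, and the window at the other start held a GAS element (TTCNNNGAA, in 7.66% of all promoters) and an IRF repeat (GAAA written again after any 2 bases, in 3.57% of all promoters), shown on the minus strand with the match in capitals.
WARS GAS, chr14:100375471-100375499: gctcaagtgtTTCTGAGAAtctgggtgat
WARS IRF repeat, chr14:100375383-100375412: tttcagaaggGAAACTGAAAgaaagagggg

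They began at positions -142 and -55 from that start. The GAS letters were also in promoters of CARS, TARS, PARS2 and WARS2, and the IRF repeat in those of EARS2, and WARS was the one synthetase with both in a single window. An interferon response list of 13 genes, of which 12 passed the filter, was set beside WARS. Every gene of the 12 was higher in hypoxia in scrambled cells, with a median of 1.65, where 46.4% of all genes were lower. Every one was lower in H-si than in H-scr, with a median of -1.49, as were 42.9% of all genes. TAP1, a peptide transporter, had 41.5 and 27.2 FPKM in normoxia and 65.9 and 23.2 FPKM in hypoxia, so that H-si was lowest, as for WARS. OAS1, an oligoadenylate synthetase, had 19.9 and 20.3 FPKM in normoxia and 218 and 43.3 FPKM in hypoxia, so that H-si lay above both normoxia libraries. In TET1-si cells the list did not follow WARS, since 8 of the 12 genes were higher in hypoxia and 4 lower, beside 47.8% of all genes lower, with a median of 0.20 against -0.59 for WARS. In normoxia the list also differed from WARS, with a median TET1-si response of 0.094 against -0.997 for WARS.

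AARS, the alanyl enzyme (chromosome 16, 70286293 to 70323446, hg19), had 189 and 156 FPKM in normoxia and 221 and 113 FPKM in hypoxia, the same order of libraries as WARS. In hypoxia it was higher by 0.22 in scrambled cells (counting interval 0.19 to 0.25), and the response was -0.47 in TET1-si cells (-0.51 to -0.43). The ratio of H-scr to H-si was 1.96 and fell short of the criteria, but reached 2.16 after median-of-ratios scaling, under which AARS met them.

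The mitochondrial enzymes were lower in hypoxia in 13 of 16 genes in scrambled cells and in 14 of 16 in TET1-si cells. NARS2, which charges mitochondrial asparagine tRNA (chromosome 11, 78147007 to 78285919, hg19), was the lowest of them, with 23.1 and 18.5 FPKM in normoxia and 9.20 and 5.97 FPKM in hypoxia. EARS2, for glutamate, had 36.9 and 42.6 FPKM in normoxia and 16.5 and 21.4 FPKM in hypoxia. WARS2, for tryptophan, had 17.1 and 15.3 FPKM in normoxia and 10.7 and 7.42 FPKM in hypoxia. The hypoxia responses were -1.32 and -1.62 for NARS2, -1.15 and -0.99 for EARS2, and -0.68 and -1.03 for WARS2. WARS2 was lower in H-scr than in N-scr where the cytosolic WARS was higher.

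MARS2 had 6.84 and 6.69 FPKM in normoxia and 3.39 and 3.63 FPKM in hypoxia. LARS2 had 21.2 and 22.4 FPKM in normoxia and 11.8 and 14.0 FPKM in hypoxia. For AARS2 the levels were 11.6 and 10.3 FPKM and then 6.40 and 5.44 FPKM. In these 3 genes, for methionine, leucine and alanine, both hypoxia libraries were below both normoxia libraries. The response of YARS2, for tyrosine, was -0.57 and -0.72 and that of FARS2, for phenylalanine, was -0.43 and -0.61, the latter on approximately 186 to 312 reads per library.

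Little difference with oxygen was measured for HARS2, at 37.4 to 43.1 FPKM, and for PARS2, at 4.47 to 5.45 FPKM, and their counting intervals for hypoxia included 0 in both states. RARS2 was at 16.3 to 20.3 FPKM, TARS2 at 17.9 to 25.7 and IARS2 at 66.0 to 103. SARS2 and VARS2 were higher in hypoxia in scrambled cells and lower in TET1-si cells. SARS2 had 43.0 and 35.6 FPKM in normoxia and 58.1 and 32.5 FPKM in hypoxia, and VARS2 had 16.02 and 16.5 FPKM and then 18.7 and 13.2 FPKM. CARS2 showed the reverse, with 112 and 120 FPKM in normoxia and 88.4 and 130 FPKM in hypoxia. SARS2 shares 15493 bases with a second annotated coding gene on the same strand (ENSG00000269547), and VARS2 shares 5865 bases with GTF2H4, so their reads could be split. MARS2 lies within an annotated noncoding RNA on the same strand over all its 3027 bases (ENSG00000222017), with the same limit. In all, 27 of the 36 members overlap another gene of the expression table, and 12 overlap a protein-coding one. AARS, WARS, CARS2, HARS2, PARS2, SARS2 and VARS2 were the 7 members with opposite hypoxia responses in the 2 knockdown states, beside 22.1% of all genes tested.

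The second comparison took TET1-si against scrambled cells under hypoxia. The median was -0.22 for the cytosolic and 0.062 for the mitochondrial set, beside 0.10 for all genes, and 19 of 20 cytosolic but 9 of 16 mitochondrial genes lay below the median of all genes. At least 1.5-fold lower were 7 members, WARS, MARS, AARS, IARS, VARS, SARS2 and NARS2, beside 16.8% of all genes, and MARS and WARS were at least 2-fold lower, beside 8.35%. No member was at least 1.5-fold higher, where 24.3% of all genes were. Median-of-ratios scaling moved the median of all genes by -0.14. It brought the members at least 1.5-fold lower to 11, beside 3212 of 15003 genes under that scaling. Under it 7 members changed sign, among them EPRS, LARS and QARS, whose deposited changes were 0.07, 0.05 and 0.06.

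Under normoxia the same contrast gave a median of -0.079 for the cytosolic and 0.094 for the mitochondrial set, beside 0.15 for all genes, with 17 of 20 and 10 of 16 genes below the median of all genes. GARS (-0.71) and WARS (-0.997) were at least 1.5-fold lower, beside 12.0% of all genes, and YARS2 (0.64) was at least 1.5-fold higher, beside 24.7%. Scaling by median of ratios moved the median of all genes by -0.16, turned 9 members and left no member at least 1.5-fold higher. The mitochondrial median was then below 0 in both oxygen states. The cytosolic median stayed below the mitochondrial one, which rescaling cannot alter because it shifts all genes of a contrast almost equally. Expressed as differences of medians, cytosolic less mitochondrial was -0.29 under hypoxia and -0.17 under normoxia.

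**Figure D3:**
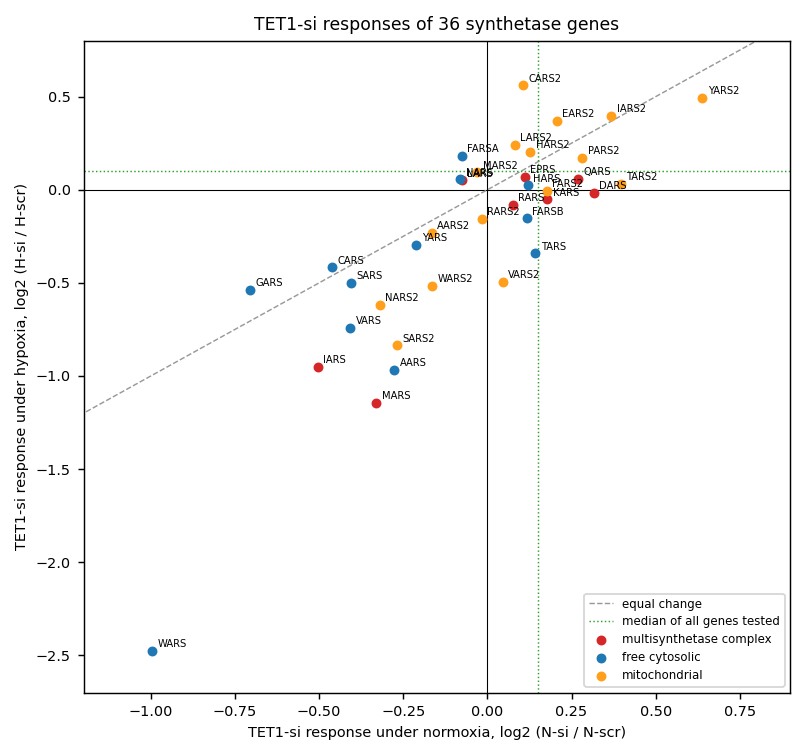
Log2 change after TET1-si of the 36 synthetase genes under normoxia (horizontal) and under hypoxia (vertical), coloured by group, with dotted lines at the median of all genes tested (0.15 and 0.10) and a dashed line of equal change. WARS lies alone at the lower left (-0.997 and -2.48), and MARS, AARS and IARS lie below the dashed line. The points above both dotted lines are EARS2, IARS2, PARS2 and YARS2, all mitochondrial.

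Genes of the same chromosome shared part of the TET1-si change, such as a median of -0.32 under hypoxia for the protein-coding genes of chromosome 7, which holds GARS. Each member was therefore set beside the median of 50 protein-coding genes around it (47 for CARS2), a comparison added after the values were seen. Under hypoxia the neighbours of GARS had a median of -0.48 and GARS had -0.54, and under normoxia -0.46 and -0.71. The neighbours of SARS2 stood at -0.66 under hypoxia, beside -0.84 for SARS2 itself, and those of YARS2 at 0.65 under normoxia, beside 0.64. For these 3 members the gene and its surroundings changed in the same direction in those contrasts. Over all members the median gap to the neighbours was -0.21 for the cytosolic and -0.14 for the mitochondrial set under hypoxia, and -0.25 and -0.043 under normoxia. WARS and MARS lay further below their surroundings under hypoxia, at -2.48 beside -0.49 and -1.14 beside -0.48, and AARS (-0.97), whose neighbours had 0.15, lay below a stretch that was higher. EPRS and IARS2, which lie near each other on chromosome 1, had neighbour medians of 0.59 and 0.64 and changes of 0.07 and 0.40 under hypoxia. Of the 20 cytosolic genes 18 were below their neighbours under hypoxia and 16 under normoxia, and of the 16 mitochondrial genes 9 and 10.

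The cytosolic and mitochondrial enzymes for the same amino acid formed 13 pairs. The cytosolic gene was the higher in 12 pairs in N-scr, with a median ratio of 5.18, and in 11 pairs in H-si, with a median ratio of 3.46. CARS was below CARS2 in all 4 libraries, with a ratio of 0.16 to 0.32, and IARS was below IARS2 in H-si alone, where the ratio was 0.62, beside 1.59 in H-scr and 2.40 and 1.31 in normoxia. The 3 widest ratios in H-scr belonged to MARS/MARS2, at 40.2, WARS/WARS2, at 34.6, and AARS/AARS2, at 34.5. For AARS/AARS2 the ratio was 16.3 and 15.1 in normoxia and 20.8 in H-si, the widest of that library, whereas WARS/WARS2 had 11.6 and 6.53 in normoxia and 8.93 in H-si. After TET1-si the cytosolic change was below the mitochondrial one in 10 of 13 pairs under hypoxia and in 11 of 13 under normoxia, and for hypoxia it was so in 8 pairs in scrambled and 10 in TET1-si cells. The pairs NARS/NARS2 and RARS/RARS2 ran against this after TET1-si in both oxygen states, with differences of 0.67 and 0.07 under hypoxia.

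**Figure D4:**
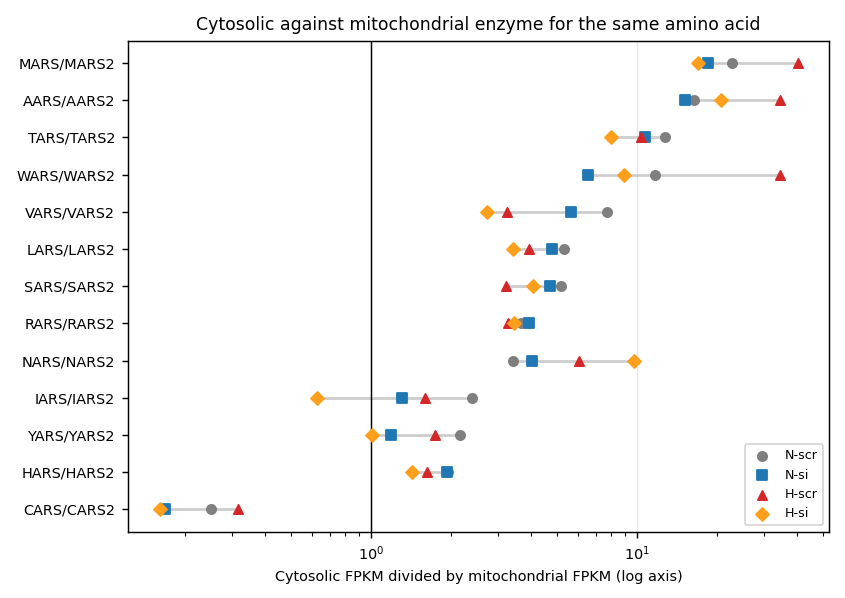
FPKM of the cytosolic gene divided by that of the mitochondrial gene for the same amino acid (log axis) in 13 pairs, 1 point per library, with a line at equal levels. CARS/CARS2 lies below 1 in every library, IARS/IARS2 crosses to 0.62 in H-si, and WARS/WARS2 spans 6.53 to 34.6.

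The cytosolic genes were then divided by pathway, the 12 often listed as amino acid response genes against the other 8. The median hypoxia responses were -0.46 and -0.90 for the former and -0.40 and -0.43 for the latter. After TET1-si the medians of the former and the latter were -0.46 and -0.03 under hypoxia and -0.30 and 0.12 under normoxia, beside 0.10 and 0.15 for all genes. All 12 of the former lay below the median of all genes in both oxygen states. Of the latter 8, 7 did so under hypoxia and 5 under normoxia. The surroundings of the groups differed too. Under hypoxia neighbour medians after TET1-si were negative for CARS, GARS, IARS, MARS, SARS, TARS and WARS of the 12. They were positive for AARS, EPRS, LARS, NARS and YARS. Of the 8, RARS and VARS alone had negative ones. The medians ran from -0.49 (WARS) to 0.59 (EPRS) in the 12. In the 8 they ran from -0.10 (VARS) to 0.27 (QARS). The part of the surroundings in this division was not tested. Amino acid response genes that are no synthetases had medians of -0.44 and -0.32 after TET1-si and -0.37 and -0.52 in hypoxia, in the 24 that passed the filter. Of these 11 were at least 1.5-fold lower and 2 higher after TET1-si under hypoxia, beside 16.8% and 24.3% of all genes, and 10 were lower and 5 higher under normoxia, beside 12.0% and 24.7%.

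ATF4, the transcription factor of this response, had 388 and 221 FPKM in normoxia and 344 and 167 FPKM in hypoxia. PSAT1 and PHGDH, enzymes of serine synthesis, were lowest in H-si, PSAT1 with 82.5 and 44.01 FPKM in normoxia and 23.3 and 7.25 FPKM in hypoxia and PHGDH with 189 and 120 FPKM and then 126 and 58.6 FPKM. The list did not move as a whole, since PYCR1 (proline synthesis) had 69.4 and 228 FPKM in normoxia and 14.9 and 69.2 FPKM in hypoxia, and ASNS, the asparagine synthetase, had 64.7 and 66.5 FPKM and then 25.02 and 24.1 FPKM.

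The 7 cytosolic genes with the CARE core had a median of -0.54 after TET1-si under hypoxia and -0.33 under normoxia, against -0.053 and 0.11 for the 9 matched genes in which it was not found. Of the 7, 6 were lower in each oxygen state, beside 42.9% of all genes under hypoxia and 39.0% under normoxia, the exceptions being NARS under hypoxia (0.06) and TARS under normoxia (0.14). WARS, which changed most, was among the 9. For hypoxia the medians were -0.43 and -0.32 in scrambled and -0.89 and -0.48 in TET1-si cells. YARS2, the mitochondrial gene with the core, was higher after TET1-si in both oxygen states, with 51.1 and 79.5 FPKM in normoxia and 34.3 and 48.3 FPKM in hypoxia. The 7 cytosolic genes all belong to the amino acid response synthetases, so this division overlaps the one above. Their neighbours after TET1-si under hypoxia had medians of -0.48 for GARS and MARS, -0.22 for CARS, -0.16 for IARS and -0.14 for TARS. Those of AARS and NARS had 0.15 and 0.17. Among the 9 they were -0.49 for WARS, -0.23 for SARS and -0.08 for RARS. The rest of the 9 had positive neighbour medians, 0.08 for FARSA, 0.14 for FARSB and HARS, 0.16 for KARS, 0.27 for QARS and 0.59 for EPRS. The part of these surroundings in the split was not tested.

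**Figure D5:**
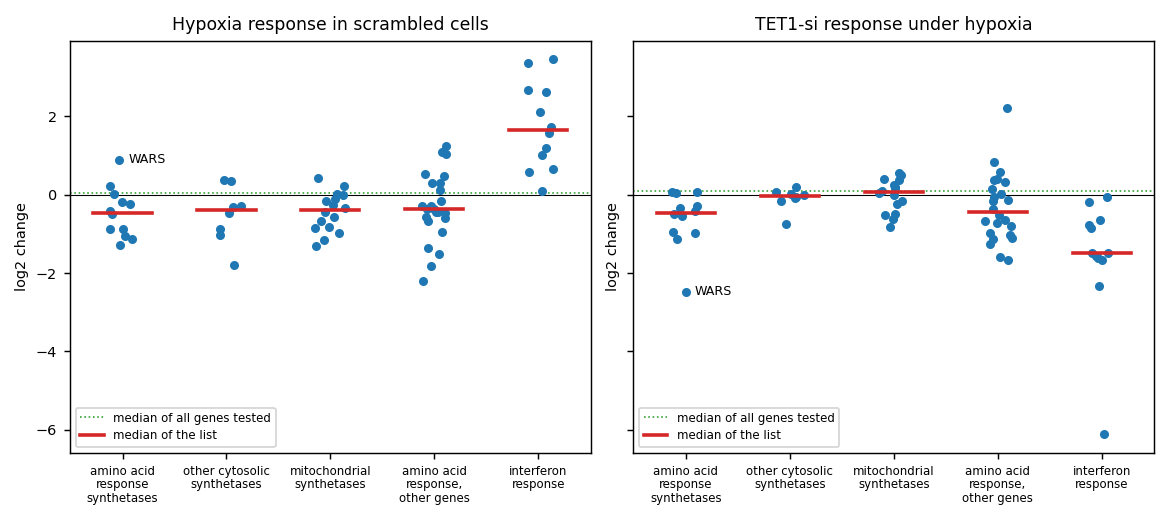
Log2 change in hypoxia in scrambled cells (left) and after TET1-si under hypoxia (right) for 3 groups of synthetases, for other amino acid response genes and for interferon response genes, 1 point per gene, with red bars at list medians and a dotted line at the median of all genes tested. WARS is set apart from the other synthetases in the direction of the interferon list in both panels, and the lowest point on the right is CXCL10, listed at 0 in H-si.

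Other parts of the translation machinery were measured for comparison. The 12 mitochondrial translation factors tested were all lower in hypoxia in scrambled cells, beside 46.4% of all genes. Their median was -0.39, close to the -0.39 of the mitochondrial synthetases. In TET1-si cells 8 of 12 were lower, beside 47.8% of all genes. The median there was -0.35, against -0.55 for the mitochondrial synthetases. TUFM, the mitochondrial elongation factor, had 536 and 392 FPKM in normoxia and 348 and 282 FPKM in hypoxia. The 7 genes listed as cytosolic elongation factors had medians of -0.48 and -0.38. They include EEF1E1 (-1.13 and -1.33), which was also counted above as a scaffold gene. In contrast, EEF1A1, which carries charged tRNAs to the ribosome, was at 4104 FPKM in normoxia and 4095 in hypoxia in scrambled cells. By structural class of the enzyme the median hypoxia responses were -0.46 and -0.70 for class I and -0.43 and -0.47 for class II. Among the cytosolic enzymes alone they were -0.32 and -0.96 for class I and -0.45 and -0.42 for class II, and after TET1-si under hypoxia -0.42 for class I and -0.10 for class II.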

How the data were processed

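Per the labels and the study's methods, mRNA libraries of FaDu cells were sequenced with 100 bp reads, described as single end in the labels and as paired end in the methods. The authors aligned them to hg19 with TopHat and Cufflinks and Ensembl annotations, versions not given in the sources used here, and deposited gene-level FPKM for 4 libraries, 1 per group. Depth (22650000 to 24700000 reads) was recovered from 6332 single-exon genes, where 96.61% to 97.24% of low values came out as whole reads within 0.05. Reads per gene, and the exact (Clopper-Pearson) 95% counting intervals of log2 ratios resting on them, are approximate, used canonical transcript lengths less 216 bp, and cover counting error only.

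Changes were computed as log2(FPKM + 0.1), which understates changes of low genes, over 15057 genes with a mean of at least 1 FPKM. Rows sharing an identifier (232) were left out. Calls are folds of at least 1.5 or 2, without a test. Start positions were raised by 1. All members were named. Those at least 1.5-fold changed, among the 4 largest changes of a contrast, or paired by amino acid were described in more detail. Some of these, such as DARS, HARS2, IARS2, RARS2 and TARS2, have ranges over libraries, and FARS2 has responses and reads only. The members and lists were chosen with earlier results of these data known, and 2 motifs and the neighbour medians were added after values were seen. Alternatives were pseudocounts of 1 and none, no filter and a minimum of 5 FPKM, median-of-ratios scaling and TPM. The calculations were tested on simulated data. Python 3.11.15, numpy 2.4.6, pandas 2.3.3, scipy 1.17.1 and matplotlib 3.10.9 were used.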

Additional observations from a re-analysis of the deposited data

Results flagged for a closer look

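In 8 members a response ran in opposite directions in the 2 states compared, with the counting intervals of both responses clear of 0. None of these differences was tested, because each rests on 4 single libraries. How many of all genes meet the same rule was not computed. Opposite hypoxia responses, whatever the intervals, were in 7 of the 36 members, beside 22.1% of all genes tested. The difference of hypoxia responses, TET1-si less scrambled, was -1.48 for WARS, -0.69 for AARS, -0.57 for SARS2 and -0.54 for VARS2, which were higher in hypoxia in scrambled cells and lower in TET1-si cells. It was 0.45 for CARS2, which was lower in scrambled and higher in TET1-si cells. For SARS2 rescaling to TPM turned the response in TET1-si cells, so its directions were no longer opposite.

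FARSB, RARS and TARS were higher after TET1-si under normoxia and lower under hypoxia, with differences (hypoxia less normoxia) of -0.27, -0.16 and -0.48. All 3 were below 0 under normoxia after median-of-ratios scaling. FARSB was at 42.9 FPKM in N-scr and 46.5 in N-si, so the opposite direction rests on a small difference between those libraries.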

How the results depend on the processing

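Of 98 alternatives, 87 kept their direction and moved by less than the counting error of the members at the median, or by at most 1.5 times for a count, and every one of the others came from rescaling. Part of the 87 could not have moved. All 36 members pass the filter, so dropping it changes nothing, and the minimum of 5 FPKM removes no cytosolic member. Rescaling shifts all members of a contrast almost equally, so the gap between the cytosolic and mitochondrial medians is kept. Median-of-ratios scaling moved the cytosolic median to -0.57 for hypoxia in scrambled cells, -0.83 for hypoxia in TET1-si cells, -0.37 for TET1-si under hypoxia and -0.25 under normoxia. TPM moved it to -0.33, -0.60 and, under normoxia, -0.030. The mitochondrial medians after TET1-si were reversed by median-of-ratios scaling, to -0.081 under hypoxia and -0.073 under normoxia. That scaling also raised the members at least 1.5-fold changed after TET1-si under hypoxia from 7 to 11, all lower, beside 3212 of 15003 genes lower by as much. The members meeting the study's criteria rose from 1 to 2. Median-of-ratios scaling moved the median of all genes by -0.10, -0.08, -0.14 and -0.16 over the 4 contrasts in that order, and TPM by 0.13, 0.15, 0.07 and 0.05. Among genes at least 1.5-fold changed, 62.8%, 55.5%, 59.2% and 67.3% were higher as deposited, 51.5%, 47.6%, 47.1% and 52.6% after median-of-ratios scaling and 73.8%, 67.5%, 64.1% and 70.6% as TPM. No paired analysis was possible because each group had 1 library and the labels carry no replicate numbers. Without replicates, differences between cultures cannot be told apart from those between conditions.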
